A study of Mus musculus with 32 samples.

Results

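The segments of the T cell receptor beta locus were taken as all genes whose symbol starts with Trbv, Trbj or Trbc. There were 51 of them among the 35968 genes of the tables, namely 35 variable segments (Trbv), 14 joining segments (Trbj) and the 2 constant genes Trbc1 and Trbc2. The cells were CD4+ TCRb+ T cells of liver and spleen, sorted by Foxp3 into positive regulatory cells (Treg) and negative conventional cells (Tconv), from male C57BL/6 mice of the Foxp3GFP genotype, which all groups share and in which green fluorescent protein marks cells that express Foxp3. Each of these 4 populations had 3 libraries from control mice and 5 from mice given carbon tetrachloride (CCl4), a solvent that injures hepatocytes and is used to model liver fibrosis, which made 8 groups and 32 libraries. The sources used here do not give the dose, route or duration of CCl4, the age of the mice or the number of mice behind a library. Nothing states that libraries of a group came from separate animals, so p-values measure the spread between these samples, which may be technical.

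Each developing T cell joins 1 Trbv segment to a D and a Trbj segment in the thymus, and splicing then links this exon to Trbc1 or Trbc2. The Trbv segment encodes the loops of the beta chain that mostly touch the MHC molecule, and the junction of the segments encodes the third loop, which mostly touches the peptide. Diverse CD4 T cells use the whole set of segments, whereas invariant natural killer T cells, which are frequent in mouse liver, pair a fixed alpha chain built on Trav11 and Traj18 with beta chains of Trbv13-2, Trbv13-1, Trbv13-3, Trbv29 or Trbv1. Usage here means a segment's share of all counts of its class (Trbv, Trbj or Trbc) in a library. The shares of a class add up to the whole, so a higher share of 1 segment goes with lower shares of others. Trbc1 and Trbc2 mirror each other. In bulk RNA, fewer cells with a segment and less receptor RNA per cell cannot be told apart.

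A library held 24513124 to 75292019 estimated counts, of which Trb genes made up between 0.125 and 0.325%. Trbv genes together had 6534 to 33681 counts, Trbj genes 1577 to 6243 and Trbc genes 24242 to 125281, so the 95% Wilson interval of a Trbv share in 1 library was at most 0.752 percentage points to either side. Foxp3, which checks the sort, stood at 909 to 1176 CPM (counts scaled to library size) in Treg and at 0.681 to 3.43 CPM in Tconv libraries, and the summed CD4 T cell markers Cd4, Cd3e and Trac at 2195 to 3903 CPM. The summed CD8 T cell markers reached at most 28.8 CPM, B cell markers 41.4 (in Treg; 10.8 in Tconv), myeloid markers 88.8 (in spleen Treg with CCl4; 32.9 elsewhere) and hepatocyte markers 222 (in liver; 0.963 in spleen), and none of these markers was at 0 in every library. Spleen control libraries numbered 2 and 3 stood apart from the rest in both cell types: Fos, an immediate early gene, was at 19.4 to 26.4 CPM in these 4 libraries, against 803.8 and 842.8 in the spleen control libraries numbered 1 and 711 to 1116 in the CCl4 libraries of spleen. Only some of the results that rest on these libraries are also given without them, mainly those that lost their call. The other spleen results, among them the distances between libraries, are given with them only. Without them each spleen control group is 1 library, which is then assumed to vary like the other groups.

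All members lie on chromosome 6 (coordinates of GRCm38). Trbv1 to Trbv30 span 40891229 to 41281990 on the plus strand, the joining and constant genes 41533864 to 41548352, and Trbv31 lies beyond the constant genes on the minus strand at 41557691 to 41558452. Of the functional segments whose usage differed between cell types or organs, Trbv4, Trbv16, Trbv2 and Trbv5 are not printed. Another 8 are shown by the last 60 bases of their coding exon, 5′ to 3′ as deposited in GENCODE M21. They carry capitals from the codon of the conserved cysteine, where the germline part of the third loop begins. They lie at 6:41227934-41227993 (Trbv26), 6:41216467-41216526 (Trbv23), 6:41114008-41114067 (Trbv12-1), 6:41119305-41119364 (Trbv12-2), 6:41048769-41048828 (Trbv3), 6:41557693-41557752 (Trbv31, minus strand), 6:41178989-41179048 (Trbv19) and 6:41271822-41271881 (Trbv29).
Trbv26: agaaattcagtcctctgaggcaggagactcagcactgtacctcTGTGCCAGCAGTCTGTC
Trbv23: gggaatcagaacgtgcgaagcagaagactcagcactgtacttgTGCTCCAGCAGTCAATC
Trbv12-1: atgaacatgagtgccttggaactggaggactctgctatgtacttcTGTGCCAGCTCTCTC
Trbv12-2: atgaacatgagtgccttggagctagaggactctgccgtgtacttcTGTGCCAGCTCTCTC
Trbv3: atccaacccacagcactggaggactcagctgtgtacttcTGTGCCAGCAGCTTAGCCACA
Trbv31: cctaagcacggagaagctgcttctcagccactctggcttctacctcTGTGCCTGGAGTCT
Trbv19: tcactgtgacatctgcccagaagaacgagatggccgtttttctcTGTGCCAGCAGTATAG
Trbv29: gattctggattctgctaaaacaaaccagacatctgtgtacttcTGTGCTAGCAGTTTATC
Trbv12-1 and Trbv12-2, which lie on either side of Trbv13-1, have the same germline start of the third loop, while the starts of the other 6 are shared with no other functional segment. In the older mouse nomenclature listed by RefSeq, Trbv26 is Tcrb-V3, Trbv23 is Tcrb-V20, Trbv12-1 is Tcrb-V5.2, Trbv12-2 is Tcrb-V5.1, Trbv3 is Tcrb-V16, Trbv31 is Tcrb-V14, Trbv19 is Tcrb-V6 and Trbv29 is Tcrb-V7.

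The 4 other segments that invariant natural killer T cells are known to use, beside Trbv29, are shown in the same way because liver holds many of these cells. They lie at 6:41116409-41116468 (Trbv13-1), 6:41121773-41121832 (Trbv13-2), 6:41130526-41130585 (Trbv13-3) and 6:40891826-40891885 (Trbv1).
Trbv13-1: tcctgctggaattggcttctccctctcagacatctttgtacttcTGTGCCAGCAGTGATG
Trbv13-2: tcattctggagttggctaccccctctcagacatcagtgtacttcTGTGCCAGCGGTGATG
Trbv13-3: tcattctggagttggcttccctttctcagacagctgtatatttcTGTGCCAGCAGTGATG
Trbv1: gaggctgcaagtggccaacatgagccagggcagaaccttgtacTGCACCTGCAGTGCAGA
Trbv13-1 and Trbv13-3 have the same germline start of the third loop, and Trbv13-2 another. Trbv13-2 and Trbv13-3 were the most alike pair of Trbv coding exons, with 91.8% identity, followed by Trbv12-1 and Trbv12-2 with 89.1%. Of the 310 stretches of 31 bases in the Trbv13-2 transcript, 31 also occur in Trbv13-3, and Trbv12-1 shares 14 of its 359 with Trbv12-2, so counts within these pairs could be split by the estimation.

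Trbv26 and Trbv23, which showed 2 of the 3 largest differences between Treg and Tconv, also have similar coding exons. They are printed whole, with capitals where they differ (6:41227696-41227993 and 6:41216229-41216526, plus strand).
Trbv26: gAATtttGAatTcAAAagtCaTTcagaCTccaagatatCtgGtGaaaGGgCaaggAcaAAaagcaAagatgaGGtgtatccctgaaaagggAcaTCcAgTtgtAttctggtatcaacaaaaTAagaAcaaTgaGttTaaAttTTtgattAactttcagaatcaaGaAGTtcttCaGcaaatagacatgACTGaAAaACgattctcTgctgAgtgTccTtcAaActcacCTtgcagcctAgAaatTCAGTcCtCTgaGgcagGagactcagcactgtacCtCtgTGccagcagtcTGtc
Trbv23: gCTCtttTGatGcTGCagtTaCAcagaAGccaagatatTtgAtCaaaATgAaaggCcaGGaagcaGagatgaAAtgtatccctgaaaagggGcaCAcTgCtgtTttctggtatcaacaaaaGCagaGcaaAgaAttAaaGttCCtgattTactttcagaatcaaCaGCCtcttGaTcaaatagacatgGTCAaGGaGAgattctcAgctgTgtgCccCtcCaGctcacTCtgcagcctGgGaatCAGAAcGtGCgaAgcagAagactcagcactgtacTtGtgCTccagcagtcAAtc
Over 298 bases, 216 were identical (72.5%), the highest value between Trbv segments outside the Trbv12 and Trbv13 families. The 2 exons had no stretch of 31 bases in common with each other or with any other segment. Trbv12-1, the third of these segments, was 53.7% identical to Trbv26 and 55.6% to Trbv23.

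Trbv1 had the largest mean share over the 8 groups, 9.85% of Trbv counts, followed by Trbv3 with 9.22%, Trbv13-2 with 8.95%, Trbv16 with 8.42% and Trbv19 with 7.96%. Shares of counts depend on transcript length, and per length (shares of the deposited TPM) the order was Trbv13-2 with 11.7%, Trbv1 with 9.11%, Trbv16 with 8.44% and Trbv3 with 7.35%, while Trbv19 stood at rank 11 with 4.39%. The level order of the segments is therefore given only per length, and comparisons between groups are of 1 segment at a time. At the low end, functional Trbv26, Trbv23 and Trbv21 averaged 0.939, 0.312 and 0.0991% of Trbv counts.

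**Figure D1:**
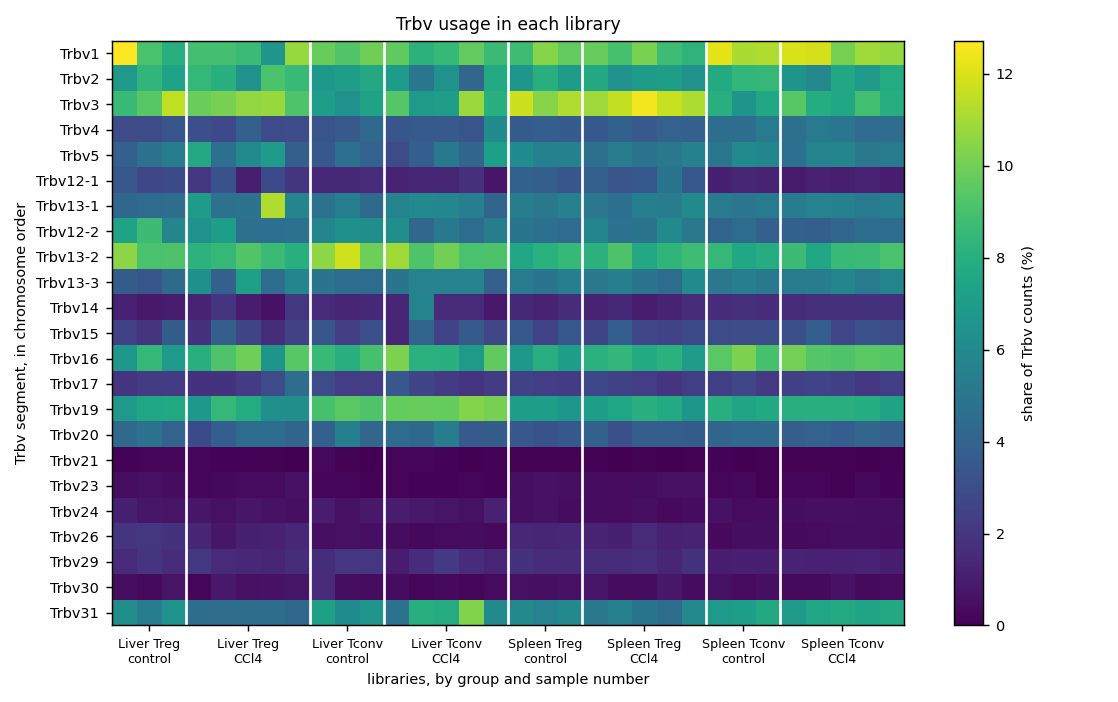
Share of Trbv counts (percent, colour) of the 23 tested Trbv segments (rows, in chromosome order) in the 32 libraries (columns, by group). The same few rows are bright in every library, and the rows of Trbv12-1 and Trbv3 are brighter in Treg than in Tconv columns.

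Treg and Tconv of the same organ differed in the usage of some Trbv segments, 6 of them in both organs. Treg used Trbv26, Trbv23, Trbv12-1 and Trbv3 more, and Trbv31 and Trbv4 less, in both liver and spleen. Of the 39 members that could be tested, the usage of 12 (30.8%) was called in liver, where 51.8% of all tested genes were called, and of 10 (25.6%) in spleen, where 39.7% were called. By class, 9 of 23 Trbv (39.1%), 2 of 14 Trbj and 1 of 2 Trbc were called in liver. In spleen 10 of 23 Trbv (43.5%) and no Trbj or Trbc were called. Wherever calls of usage are set beside all genes, the measures are unlike, since genes other than members were tested by level scaled to library size. On that scale 19 of the 23 Trbv were called in liver (17 lower and 2 higher in Treg) and 9 in spleen (6 higher and 3 lower). The median absolute log2 fold change of usage over the 23 tested Trbv segments was 0.18 in liver and 0.25 in spleen. Over all genes, tested by level apart from the members, it was 0.46 and 0.33. The 6 segments named were called in both organs in the same direction, which is 15.4% of the 39 members, 50% of their calls in liver and 60% of those in spleen. Of all tested genes 28.7% were called in both organs in the same direction, which is 55.4% of the calls in liver and 72.3% of those in spleen. The comparisons in the 2 organs have no library in common, but whether they share mice is not known.

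Trbv26 had the largest difference in liver, and the largest but 1 in spleen after Trbv12-1. In liver Treg it held 1.92, 2.03 and 1.85% of Trbv counts in the control libraries and 1.35, 0.792, 1.14, 1.15 and 1.45% in the CCl4 libraries. In liver Tconv it held 0.498, 0.565 and 0.522% in the control and 0.44, 0.255, 0.365, 0.444 and 0.328% in the CCl4 libraries. Every liver Treg library was above every liver Tconv library, with a log2 fold change of 1.78 (SE 0.15, adjusted p = 3.03e-11). Spleen Treg libraries had 1.39, 1.38 and 1.48% in the control and 1.23, 1.11, 1.49, 1.15 and 1.25% in the CCl4 group. Spleen Tconv libraries had 0.321, 0.489 and 0.489% and 0.308, 0.359, 0.448, 0.484 and 0.445%. Here too no Tconv library reached the lowest Treg library, and the log2 fold change was 1.66 (SE 0.15, adjusted p = 1.34e-10).

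Trbv23, the rarer relative of Trbv26, showed a difference of like size from far fewer counts. It made up 0.467, 0.573 and 0.411% of Trbv counts in the control and 0.196, 0.272, 0.376, 0.369 and 0.612% in the CCl4 libraries of liver Treg. In liver Tconv the shares were 0.186, 0.164 and 0.0899% and 0.158, 0.141, 0.114, 0.181 and 0.130%. Treg and Tconv were apart within the control and within the CCl4 libraries, although the lowest CCl4 Treg library, at 0.196%, lay close to the highest CCl4 Tconv library, at 0.181%. The log2 fold change was 1.53 (SE 0.28, adjusted p = 3.01e-05). In spleen, Treg had 0.362 to 0.628% (median 0.512) and Tconv 0.0555 to 0.281% (median 0.166), again without overlap, with a log2 fold change of 1.60 (SE 0.27, adjusted p = 1.77e-05).

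Trbv12-1 held 3.95, 3.85 and 3.42% of Trbv counts in control and 3.91, 3.34, 3.49, 4.90 and 3.50% in CCl4 libraries of spleen Treg. In spleen Tconv it held 1.14, 1.37 and 1.29% and 0.930, 1.18, 1.07, 1.21 and 0.992%. The lowest spleen Treg library, at 3.34%, was far above the highest spleen Tconv library, at 1.37% (log2 fold change 1.70, SE 0.17, adjusted p = 1.45e-09). The difference was smaller in liver, with 3.53, 2.69 and 2.86% in control and 2.01, 3.19, 1.06, 2.88 and 1.93% in CCl4 libraries of Treg. Liver Tconv had 1.44, 1.41 and 1.61% and 1.26, 1.31, 1.34, 1.76 and 0.756%. The liver groups were apart among control libraries and overlapped among CCl4 libraries, where Treg library 3 was low (log2 fold change 0.90, SE 0.17, adjusted p = 3.98e-05). Scaled to the whole library rather than to Trbv counts, the liver difference of Trbv12-1 was 0.18 (adjusted p = 0.396) and not called. Its close relative Trbv12-2 was called in spleen only, at 0.25 (adjusted p = 0.0422), and stood at 0.18 in liver. Whether these 2 segments differ from each other was not tested.

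**Figure D2:**
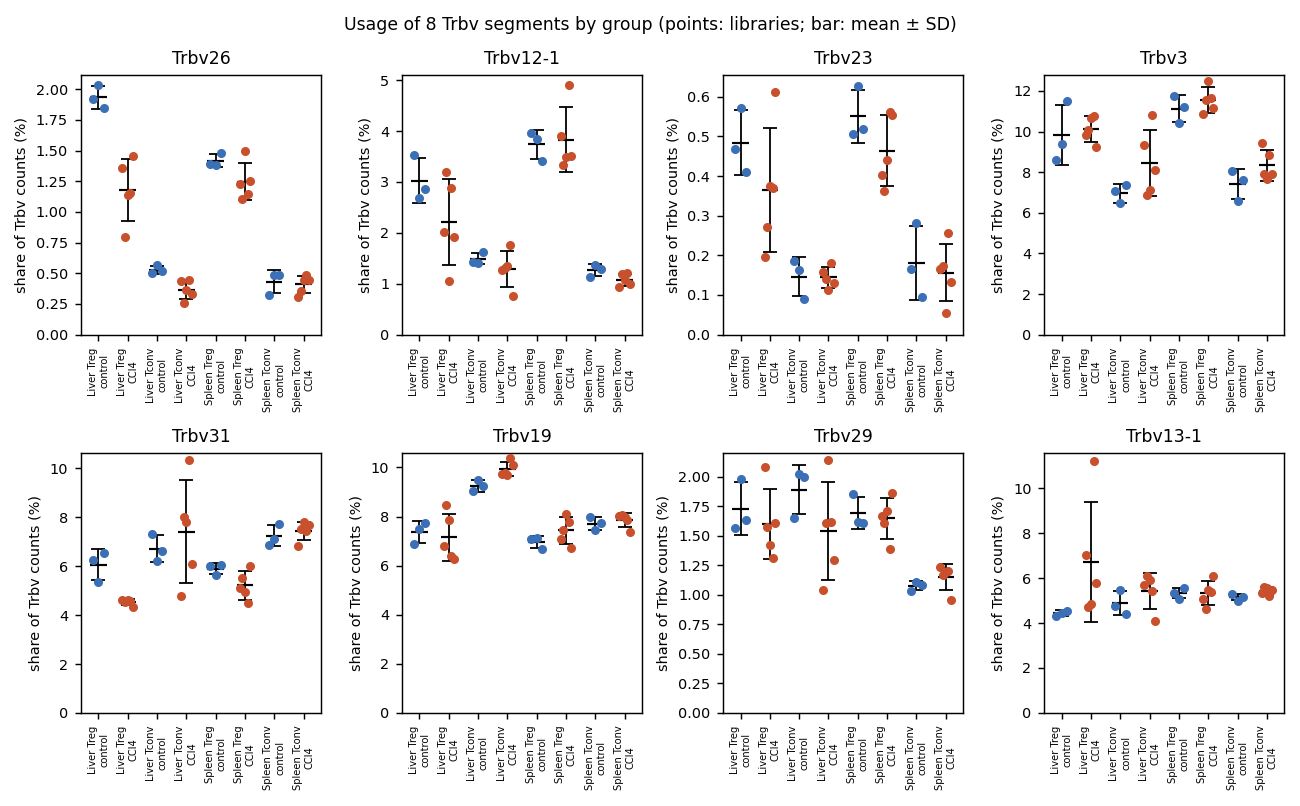
Share of Trbv counts (percent, vertical axis from 0) of 8 segments in the 8 groups. Points are libraries, blue for control and orange for CCl4, and the horizontal bar with error bar is the mean ± SD; Trbv26 and Trbv23 are higher in every Treg group than in the Tconv group of the same organ and treatment.

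Trbv3, a segment with a large mean share, was also used more by Treg. It averaged 11.4% ± 0.633 (SD, n = 8) in spleen Treg against 7.995% ± 0.852 in spleen Tconv, and every spleen Treg library (lowest 10.4%) was above every spleen Tconv library (highest 9.42%), with a log2 fold change of 0.53 (SE 0.08, adjusted p = 3.58e-06). In liver the shares were 8.59, 9.40 and 11.5% in control and 9.82, 10.1, 10.7, 10.8 and 9.24% in CCl4 libraries of Treg. Liver Tconv had 7.07, 6.46 and 7.35% and 9.35, 6.90, 7.14, 10.8 and 8.10%. The liver control groups were apart and the CCl4 groups overlapped through Tconv libraries 1 and 4 (log2 fold change 0.38, SE 0.08, adjusted p = 0.000255). Scaled to the whole library rather than to Trbv counts, Trbv3 RNA was lower in liver Treg than in liver Tconv (log2 fold change -0.31, adjusted p = 0.0434), where summed Trbv RNA averaged 297.5 and 268 CPM in control and CCl4 Treg against 410.8 and 504.8 CPM in Tconv.

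Trbv31, the inverted segment at the far end of the locus, was used less by Treg. It made up 5.99, 5.65 and 6.05% in control and 5.11, 5.53, 4.94, 4.48 and 6.00% in CCl4 libraries of spleen Treg. Spleen Tconv had 6.88, 7.13 and 7.73% and 6.82, 7.52, 7.79, 7.46 and 7.67%, all above spleen Treg (log2 fold change -0.41, SE 0.10, adjusted p = 0.00133). In liver the log2 fold change was -0.43 (SE 0.10, adjusted p = 0.00067), with control Treg at 5.36 to 6.55% overlapping control Tconv at 6.21 to 7.30%, and CCl4 Treg at 4.32 to 4.61% below CCl4 Tconv at 4.77 to 10.3%. Trbv4 was lower in Treg by a similar amount, at -0.32 in liver (SE 0.10, adjusted p = 0.0118) and -0.35 in spleen (SE 0.10, adjusted p = 0.00657). These smaller differences were less secure: without spleen controls 2 and 3 the adjusted p in spleen became 0.108 for Trbv31 and 0.167 for Trbv4, and without liver Tconv control 3 that of Trbv4 in liver became 0.0558.

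Trbv19 and Trbv29 were called in 1 organ each. Trbv19 held 6.27 to 8.49% of Trbv counts in liver Treg (median 7.18%) and 9.02 to 10.4% in liver Tconv (median 9.71%), without overlap and with a log2 fold change of -0.40 (SE 0.06, adjusted p = 8.82e-07). In spleen its medians were 7.11% in Treg and 7.92% in Tconv, and the log2 fold change of -0.11 was not called. Trbv29 held 1.39 to 1.86% in spleen Treg (median 1.64%) and 0.956 to 1.23% in spleen Tconv (median 1.14%), without overlap and with a log2 fold change of 0.59 (SE 0.12, adjusted p = 0.000323). In liver its medians were 1.59 and 1.64% and the log2 fold change was -0.04. Among the segments with large mean shares, Trbv16 was lower in spleen Treg (-0.33, adjusted p = 0.00148), as was Trbv1 (-0.26, adjusted p = 0.0122), and the liver values of both, -0.10 and 0.01, were not called. The remaining liver calls were Trbv13-2 at -0.17, Trbv2 at 0.24, Trbj2-1 at -0.39 (SE 0.12, adjusted p = 0.00875), Trbj1-4 at 0.22 and Trbc1 at 0.09.

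**Figure D3:**
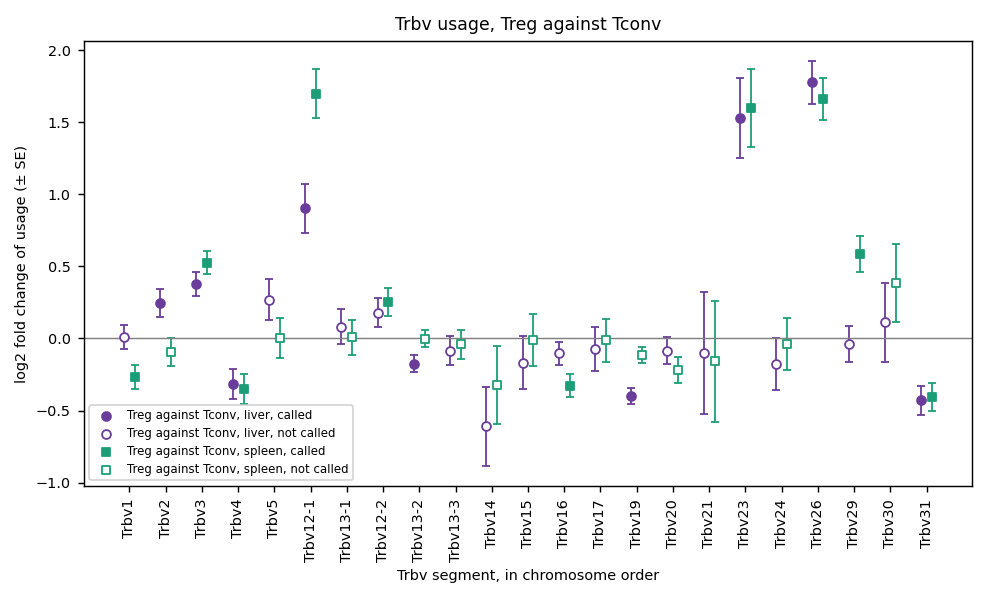
Log2 fold change of usage between Treg and Tconv (vertical axis, ± SE) for the 23 tested Trbv segments in chromosome order, circles for liver and squares for spleen, filled where called at an adjusted p under 0.05. Trbv26 and Trbv23 stand at 1.53 to 1.78 in both organs and Trbv12-1 at 0.90 and 1.70, and most other segments lie near 0 in both organs.

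Between the organs, liver Tconv used Trbv13-2, Trbv19, Trbv29, Trbv24 and Trbv12-2 more than spleen Tconv, and Trbv1, Trbv4 and Trbv5 less. With Trbj1-7 this made 9 calls among the 39 members (23.1%), in a comparison in which 55% of all genes were called. Trbv13-2 held 10.6, 11.8 and 9.93% in control and 10.9, 9.24, 9.998, 9.09 and 9.18% in CCl4 libraries of liver Tconv. Spleen Tconv had 8.48, 7.56 and 7.87% and 8.72, 7.59, 8.55, 8.69 and 9.09%. The control groups did not overlap and the CCl4 groups met at 9.09% (log2 fold change 0.31, SE 0.06, adjusted p = 3.98e-05).

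Trbv19 held 9.02, 9.49 and 9.23% in control and 9.72, 9.77, 9.70, 10.4 and 10.1% in CCl4 libraries of liver Tconv, above the 7.35 to 8.04% of all spleen Tconv libraries (log2 fold change 0.30, SE 0.06, adjusted p = 5.10e-05). Trbv29 had 1.65, 2.02 and 2.00% in control liver Tconv against 1.04, 1.11 and 1.09% in control spleen Tconv, and a log2 fold change of 0.62 (SE 0.12, adjusted p = 0.000111). Its CCl4 groups overlapped, with liver Tconv from 1.04 to 2.14%. Trbv12-2 (0.42, SE 0.10, adjusted p = 0.000744) was also higher in liver. Trbv1 ran the other way, with 8.20 to 9.98% in liver Tconv below the 10.1 to 12.2% of spleen Tconv (log2 fold change -0.28, SE 0.08, adjusted p = 0.00537). Trbv1, Trbv13-2 and Trbv29 are segments of invariant natural killer T cells. Of the others, Trbv13-1 averaged 5.24% in liver and 5.33% in spleen Tconv, and Trbv13-3 4.98 and 5.38%, and neither was called. Trbv4 was lower in liver at -0.31 (SE 0.10, adjusted p = 0.0123), with an adjusted p of 0.107 without spleen controls 2 and 3. Scaled to the whole library, Trbv13-2 and Trbv19 stood at -0.063 and -0.060 and were not called. Nor were Trbv29 (0.28, adjusted p = 0.179), Trbv24 (0.425, adjusted p = 0.0558), Trbv12-2 (0.043, adjusted p = 0.723) and Trbj1-7 (0.29, adjusted p = 0.118). On that scale 13 members were lower in liver Tconv and none was higher.

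Genes that mark invariant natural killer T cells moved with some of these values. Trav11, the invariant alpha segment, was at 18.2 to 46.0 CPM in control liver Tconv, 3.76 to 9.90 in CCl4 liver Tconv, 4.63 to 8.02 in spleen Tconv and at most 3.19 in any Treg library. Zbtb16, which encodes the factor PLZF of innate-like T cells, was at 15.1 to 36.3, 2.36 to 6.96 and 1.71 to 4.36 CPM in the 3 Tconv sets in that order, and Klrb1c, which encodes NK1.1, at 6.25 to 10.1, 1.17 to 3.00 and 0.613 to 4.62 CPM. The whole list had 5 tested members of 6, and all 5 were higher in liver than in spleen Tconv. Between liver Treg and liver Tconv the list was split, with 2 members higher in Treg and 3 lower. With CCl4 in liver Tconv only Zbtb16 was called, at a log2 fold change of -2.73. Trav11 stood at -2.14 (adjusted p = 0.136) and Klrb1c at -2.15 (adjusted p = 0.0619). The median over the 5 tested members was -2.14, so the genes named here had the lowest values of the list. Of the 5 beta segments of these cells, Trbv13-2 and Trbv29 had log2 fold changes of usage of -0.15 (SE 0.08, adjusted p = 0.424) and -0.29 (SE 0.17, adjusted p = 0.495) with CCl4 in liver Tconv, Trbv1 -0.11, Trbv13-3 0.14 and Trbv13-1 0.16, none of them called; on the scale of library size those of Trbv13-2, Trbv29 and Trbv1 were 0.14, 0.037 and 0.18. Gamma delta T cell genes moved with several comparisons: of 5 tested of 8 listed, 4 were higher and 1 lower in liver than in spleen Tconv, all 5 were lower in liver Treg than in liver Tconv (median log2 fold change -4.87), 4 were lower in liver than in spleen Treg (median -2.13), and 3 fell with CCl4 in liver Treg (median -2.33). Their summed level was 5.95 to 8.05 CPM in control and 2.28 to 5.09 in CCl4 liver Treg, 33.2 to 95.8 and 36.7 to 51.1 in liver Tconv, 12.7 to 15.4 and 8.72 to 12.5 in spleen Treg, and 12.2 to 16.8 and 14.2 to 19.5 in spleen Tconv, and none of the 5 was at 0 in every library. The part of these cells in the usage values was not tested.

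In Treg, 15 of the 39 members (38.5%) were called between liver and spleen, against 60.5% of all genes. Both Trbc genes are among the 15, and as they share a class total their calls are not separate results. The 8 members with the smallest adjusted p were Trbv24, Trbj1-7, Trbj2-1, Trbj2-7, Trbc1, Trbv12-2, Trbv12-1 and Trbj1-6. Trbv12-1 was used less in liver, with 1.06 to 3.53% against 3.34 to 4.90% in spleen (log2 fold change -0.55, SE 0.16, adjusted p = 0.0051), apart in the CCl4 and overlapping in the control libraries. Trbv12-2 moved the other way, averaging 6.19% ± 1.48 (SD, n = 8) in liver and 5.10% ± 0.563 in spleen Treg (log2 fold change 0.34, SE 0.10, adjusted p = 0.00395). Trbv24, annotated as a pseudogene in GENCODE M21, held 1.12, 0.748 and 0.655% in control and 0.757, 0.569, 0.784, 0.633 and 0.520% in CCl4 libraries of liver Treg. Spleen Treg had 0.541, 0.624 and 0.433% and 0.443, 0.373, 0.520, 0.299 and 0.402%, below liver within each treatment although CCl4 libraries of both organs reach 0.520% (log2 fold change 0.67, SE 0.18, adjusted p = 0.00238). Scaled to the whole library, both were lower in liver Treg (Trbv12-2 at -0.74, called, and Trbv24 at -0.39, not called). Usage of Trbv24 was also higher in liver than in spleen Tconv (0.81, SE 0.18, adjusted p = 0.000408). The other 7 calls ran from -0.40 (Trbj1-1) to 0.33 (Trbj1-5). The calls in Treg depended on control libraries: without spleen controls 2 and 3 only 5 members were called, with adjusted p of 0.0762 for Trbj2-7, 0.0548 for Trbc1 and 0.0789 for Trbv12-2, and without liver Treg control 1 or control 2 the count was 10.

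The liver-spleen difference itself was compared between Treg and Tconv. It differed for 3 members (7.69%), against 19.2% of all genes: Trbv29 (-0.62, SE 0.18, adjusted p = 0.0113), Trbv19 (-0.29, SE 0.08, adjusted p = 0.0113) and Trbv12-1 (-0.80, SE 0.23, adjusted p = 0.0147), each lower in liver relative to spleen in Treg than in Tconv. None passed without spleen controls 2 and 3, where the values were -0.72 (adjusted p = 0.0628), -0.28 (0.122) and -0.91 (0.0739).

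CCl4 changed the usage of 4 members in liver Treg (10.3%, against 14.8% of all genes): Trbv26 and Trbv31 were used less and Trbv13-3 and Trbv13-1 more. Trbv26 was at 1.92, 2.03 and 1.85% in the control and 1.35, 0.792, 1.14, 1.15 and 1.45% in the CCl4 libraries, without overlap (log2 fold change -0.72, SE 0.20, adjusted p = 0.0132). Trbv31 was at 6.27, 5.36 and 6.55% against 4.61, 4.55, 4.61, 4.58 and 4.32%, also without overlap (-0.42, SE 0.14, adjusted p = 0.0446). Trbv13-1 was at 4.29, 4.47 and 4.55% against 7.01, 4.73, 4.87, 11.2 and 5.79%, where CCl4 library 4 was far above the others and Trbv13-1 had its largest share of all segments, by counts and per length (0.60, SE 0.18, adjusted p = 0.021). Trbv13-3 was at 3.76, 3.40 and 4.40% against 6.37, 3.93, 7.17, 4.54 and 5.81%, with CCl4 library 2 inside the control range (0.53, SE 0.15, adjusted p = 0.0135).

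Each of these 4 calls depended on single libraries. The adjusted p of Trbv26 was 0.0532 without control 2, and that of Trbv13-3 was 0.0586 without control 1 and 0.0906 without control 2. For Trbv13-1 it was 0.0809, 0.0634 and 0.0548 without control 1, 2 and 3, and without CCl4 library 4 the log2 fold change was 0.34 (adjusted p = 0.08). Trbv31 was lost without control 1 or 3 and without each CCl4 library in turn, with adjusted p from 0.0605 to 0.166, as well as without spleen controls 2 and 3 (0.0715). In a fit of the liver Treg libraries alone only Trbv31 was called. The CCl4 effect in liver Treg was not shown to differ from that in liver Tconv (0 members called, 2 at an unadjusted p under 0.05, 1 by DESeq2; 3.63% of all genes called) or in spleen Treg (0 called, 3 unadjusted, 1 by DESeq2; 5.48% of all genes).

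In the other 3 populations edgeR called no member with CCl4. In liver Tconv 7 members had an unadjusted p under 0.05, and DESeq2 called 2 (Trbj2-1 and Trbv30) and limma-voom 1 (Trbj2-1), in a comparison in which 0.338% of all genes were called. In spleen Treg 1 member had an unadjusted p under 0.05 and the other tools called 0 (1.14% of all genes). In spleen Tconv there were 3, with 2 called by DESeq2 (Trbj2-1 and Trbj1-7) and 1 by limma-voom (Trbj2-1; 0.903% of all genes).

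Trbj2-1 was therefore looked at in all populations, a choice made after its values were seen. It held 5.02, 3.90 and 4.80% of Trbj counts in control and 6.73, 5.97, 5.88, 6.24 and 5.85% in CCl4 liver Treg, and 5.00, 5.43 and 5.58% against 6.56, 10.1, 7.999, 11.7 and 8.64% in liver Tconv. In spleen Treg the shares were 7.50, 4.90 and 6.54% against 7.65, 7.56, 7.62, 7.85 and 10.1%, and in spleen Tconv 7.01, 5.31 and 6.00% against 8.93, 9.37, 8.96, 10.5 and 10.8%. Every CCl4 library was above every control library of its population, by a narrow margin in spleen Treg. The log2 fold changes of usage were 0.42 (SE 0.18, adjusted p = 0.108), 0.76 (SE 0.18, adjusted p = 0.0513), 0.37 (SE 0.17, adjusted p = 0.341) and 0.67 (SE 0.17, adjusted p = 0.054) in the same order. Without spleen controls 2 and 3 the spleen values were 0.12 (Treg, adjusted p = 0.972) and 0.47 (Tconv, adjusted p = 1). Scaled to the whole library the values were -0.14 in liver Treg, 0.83 in liver Tconv, -0.24 in spleen Treg and 0.10 in spleen Tconv, none called, so the higher share in Treg came with no higher Trbj2-1 level.

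The joining segments are short, 46 to 54 bases, and most carry the codons of the Phe-Gly-X-Gly stretch that folds the end of the third loop. Those the results turn on are printed with capitals for the motif TTNGGNNNNGG, searched on the coding strand, which 11 of the 14 Trbj (78.6%) and 46 of 60 Traj segments (76.7%) hold. They lie at 6:41542754-41542803 (Trbj2-1), 6:41543810-41543856 (Trbj2-7), 6:41535554-41535606 (Trbj1-6) and 6:41535642-41535687 (Trbj1-7).
Trbj2-1: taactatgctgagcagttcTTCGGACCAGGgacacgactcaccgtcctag
Trbj2-7: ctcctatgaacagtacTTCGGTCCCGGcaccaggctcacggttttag
Trbj1-6: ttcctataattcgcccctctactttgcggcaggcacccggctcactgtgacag
Trbj1-7: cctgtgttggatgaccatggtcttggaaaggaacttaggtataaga
Trbj1-6, Trbj1-7 and the pseudogene Trbj2-6 do not hold these letters. Trbj1-7 nonetheless averaged 8.17% of Trbj counts over the groups, and Trbj2-6 6.24%, against 9.74% for Trbj2-7, the most counted. A Trbj sequence offers only 16 to 24 stretches of 31 bases, which leaves few places where a read can match it. Whether Trbj counts come from RNA of joined receptor genes was not tested, so Trbj usage here means a share of counts only.

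Trbj1-7 had a larger share of Trbj counts in liver. It held 13.2, 11.9 and 8.99% of Trbj counts in control and 6.91, 8.54, 7.75, 7.72 and 9.70% in CCl4 liver Treg, against 7.34, 8.78 and 5.68% and 7.97, 6.98, 6.04, 7.15 and 3.93% in spleen Treg (log2 fold change 0.49, SE 0.14, adjusted p = 0.00277). Control libraries of the organs were apart, and CCl4 libraries overlapped. In Tconv the liver-spleen log2 fold change was 0.36 (SE 0.14, adjusted p = 0.0246), with adjusted p of 0.0572 without liver Tconv control 2 and 0.0744 without spleen Tconv control 1. Trbj2-1 (-0.44, SE 0.12, adjusted p = 0.00302) and Trbj2-7 (-0.27, SE 0.08, adjusted p = 0.00345) were used less in liver than in spleen Treg, and Trbj1-6 more (0.32, SE 0.11, adjusted p = 0.00927). Scaled to the whole library, neither Trbj1-7 (0.28, adjusted p = 0.123) nor Trbj1-6 (0.10, adjusted p = 0.523) was called between liver and spleen Treg. The Trbj1 cluster as a whole held 60.5 and 59.8% of Trbj counts in control and CCl4 liver Treg, 59.98 and 54.95% for liver Tconv, 56.4 and 52.0% for spleen Treg and 55.8 and 51.6% for spleen Tconv.

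The summed level of each class is the ground on which usage stands. Trbj RNA averaged 82.5 CPM ± 5.55 (SD, n = 3) in control and 56.1 ± 5.00 (n = 5) in CCl4 liver Treg, and the libraries did not overlap (76.6 to 87.6 against 50.3 to 63.6 CPM). The CCl4 libraries were also below the controls in spleen Treg (54.4 to 75.3 against 89.6, 109.3 and 98.4 CPM) and in spleen Tconv (57.3 to 73.9 against 78.3, 118.9 and 111.3 CPM), where the controls numbered 1, the first of each set, came closest to the CCl4 libraries. In liver Tconv the groups overlapped, with means of 79.1 and 82.2 CPM. Against the Trbv total of the same library, Trbj counts were 0.279 per Trbv count in control and 0.210 in CCl4 liver Treg, 0.193 and 0.164 in liver Tconv, 0.159 and 0.115 for spleen Treg and 0.187 and 0.110 for spleen Tconv. Spleen controls 2 and 3 had the highest of these ratios in spleen, with 0.204 and 0.144 in Treg and 0.221 and 0.204 in Tconv, against 0.130 and 0.136 in the controls numbered 1.

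Scaled to library size, single segments passed the test too. With CCl4 in liver Treg 11 members fell and none rose (2 Trbv, 7 Trbj and both Trbc), where 14.9% of all genes were called and 7.34% fell. Trbj1-7 (log2 fold change -1.03, adjusted p = 0.00117) and Trbj2-5 (-0.80, adjusted p = 0.000189) were among them. In spleen Treg 5 members fell, all of the Trbj1 cluster (Trbj1-3 to Trbj1-7, from -0.78 to -0.93; 1.18% of all genes called), and in spleen Tconv 5 fell (Trbj1-3, Trbj1-5, Trbj1-6, Trbj1-7 and Trbj2-5; Trbj1-7 at -1.22, adjusted p = 0.00499; 1.07% of all genes called). The shares of all genes that fell were 0.42% and 0.414% in these spleen comparisons. Without spleen controls 2 and 3 no member was called in either, and Trbj1-7 stood at -0.72 (adjusted p = 0.628) in spleen Treg and -0.61 (adjusted p = 1) in spleen Tconv. In liver Tconv none passed (0.338% of all genes called).

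**Figure D4:**
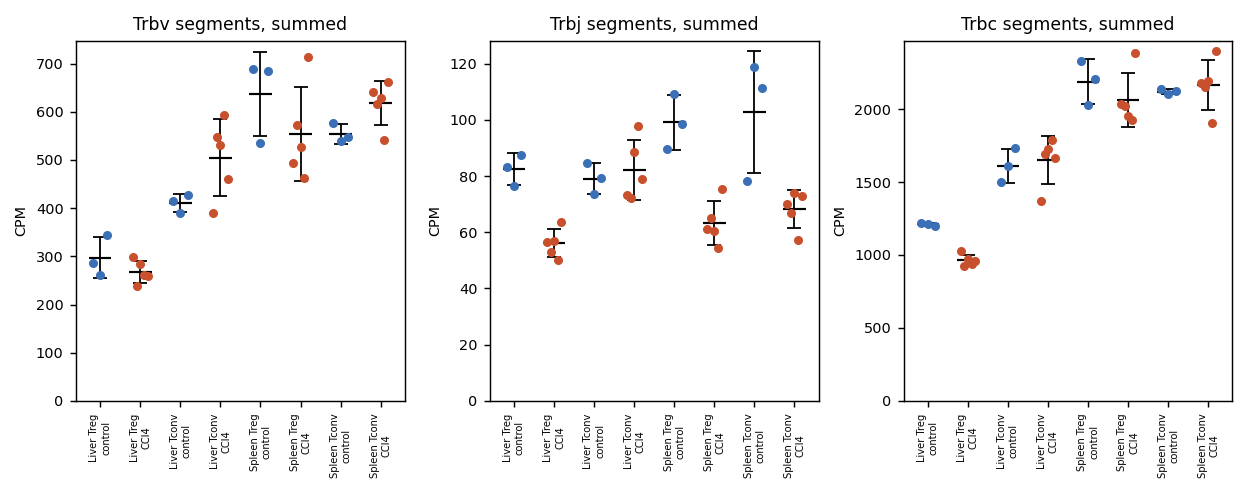
Summed CPM of the Trbv, Trbj and Trbc genes (vertical axes from 0) in the 8 groups; points are libraries, blue for control and orange for CCl4, and bars are the mean ± SD. Trbj levels are lower with CCl4 in all populations but liver Tconv, and Trbv and Trbc totals are lowest in liver Treg.

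The 2 constant genes carry most Trb counts. They encode nearly the same constant domain, which anchors the chain in the membrane, and their transcripts share 321 stretches of 31 bases, so counts could be split between them. Together they averaged 1210 CPM ± 10.6 (SD, n = 3) in control and 964.2 ± 39.1 (n = 5) in CCl4 liver Treg, 1198 to 1219 against 922.6 to 1025, with no overlap. Trbc2 fell by 0.38 on the log2 scale (SE 0.08, adjusted p = 0.00136) and Trbc1 by 0.23 (SE 0.08, adjusted p = 0.0487). In the other populations the Trbc total was 1612 ± 118 and 1650 ± 162 (liver Tconv), 2188 ± 152 and 2064 ± 186 (spleen Treg), and 2120 ± 17.4 and 2164 ± 174 (spleen Tconv), control first. The difference of the CCl4 effect between liver Treg and liver Tconv was called for Trbc2 (-0.42, adjusted p = 0.0408) and Trbj2-5 (-0.82, adjusted p = 0.019), where 3.65% of all genes were called. Liver Treg had less of both constant genes than spleen Treg (Trbc1 -0.85, Trbc2 -1.04; 31 members lower and none higher, 60.6% of all genes called and 30.5% lower) and than liver Tconv (-0.50 and -0.65; 24 lower and 2 higher, 51.8% of genes called and 27.1% lower). Liver Tconv was lower than spleen Tconv by less (-0.35 and -0.42; 13 members lower, 55% of genes called and 27.7% lower).

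Trbc1 had the smaller part of the constant counts, 34.7% on average against 65.3% for Trbc2. Its share was 35.6, 35.7 and 35.7% in control and 39.4, 35.9, 41.3, 36.8 and 36.9% in CCl4 liver Treg, above the 32.9 to 33.6% and 33.7 to 35.0% of spleen Treg (log2 fold change 0.12, SE 0.04, adjusted p = 0.00382). Liver Tconv had 31.8 to 37.3% and spleen Tconv 32.6 to 35.3%, which overlap. The higher share in liver Treg went with a lower level of Trbc1 itself, as given above, and the adjusted p was 0.0548 without spleen controls 2 and 3.

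Evenness of Trbv usage was described by the effective number of segments, the exponential of the Shannon entropy of the shares, which equals the number of equally used segments with the same entropy. It averaged 17.35 ± 0.35 (SD, n = 3) and 17.01 ± 0.34 (n = 5) in control and CCl4 liver Treg, 16.94 ± 0.37 and 16.48 ± 0.53 for liver Tconv, 17.64 ± 0.13 and 17.32 ± 0.22 for spleen Treg and 16.50 ± 0.13 and 16.44 ± 0.20 for spleen Tconv. The 8 spleen Treg libraries (17.11 to 17.79) all lay above the 8 spleen Tconv libraries (16.12 to 16.64). Liver Treg (16.71 to 17.74) and liver Tconv (16.01 to 17.36) overlapped, and so did control and CCl4 libraries in each of the 4 populations. The inverse Simpson index, which weights the most used segments more, gave 14.98 and 14.82, 14.80 and 14.48, 15.47 and 15.17, and 14.51 and 14.49 in the same order. On this index the spleen Treg libraries (14.72 to 15.69) and the spleen Tconv libraries (13.99 to 14.8) overlapped. Per length, the segment with the largest share in a library held 10.1 to 15.3% of Trbv TPM. It was Trbv13-2 in all 8 liver Tconv, all 8 spleen Treg, 7 of 8 liver Treg and 6 of 8 spleen Tconv libraries, Trbv1 in the other 2 spleen Tconv libraries and Trbv13-1 in 1 liver Treg library. For Trbj the effective number ran from 12.77 to 13.61 of 14.

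Libraries of liver Treg and of CCl4 liver Tconv differed more from each other than those of any spleen group. Those of control liver Tconv were about as far from each other as those of CCl4 spleen Treg. The mean Bray-Curtis distance between libraries of a group, the percentage of Trbv usage that 2 libraries do not share, was 8.75% in control and 11.01% in CCl4 liver Treg, 5.80 and 11.2% for liver Tconv, 4.23 and 5.58% for spleen Treg and 4.03 and 4.12% for spleen Tconv. Libraries of CCl4 liver Tconv were thus on average about as far from each other as a control Treg from a control Tconv library of the same organ, which differed by 10.7% in liver and 10.3% in spleen. Over the 18 segments with a mean share of at least 1%, the median coefficient of variation between libraries was 13.0, 17.7, 8.57, 21.4, 5.98, 9.66, 5.86 and 7% in the order of the groups above. The part expected from counting alone was 4.34, 4.73, 3.16, 3.42, 2.58, 2.82, 2.69 and 2.78%. The spread was larger than counting error in every group and largest in CCl4 liver Tconv, where for example Trbv14 held 1.36, 5.74, 1.51, 1.503 and 0.885%. The lowest Trbv counts, from 6534, were those of liver Treg libraries, and the number of cells sorted per library is not known from the sources used here.

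**Figure D5:**
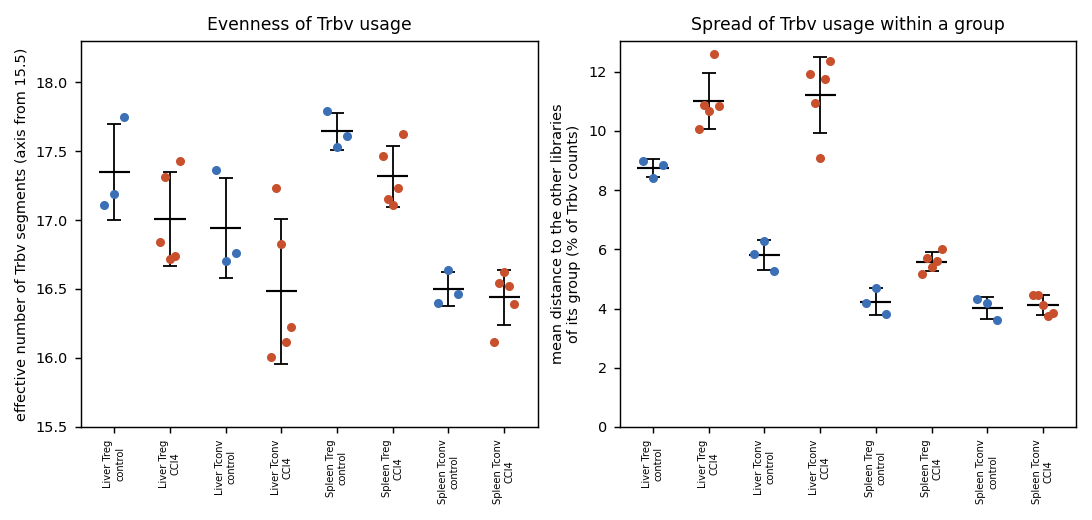
Left, effective number of Trbv segments per library (the axis does not start at 0); right, mean Bray-Curtis distance of each library to the others of its group (percent of Trbv counts, axis from 0). Points are libraries, blue for control and orange for CCl4, bars are mean ± SD; spleen Treg lies above spleen Tconv on the left, and liver Treg and CCl4 liver Tconv lie above all spleen groups on the right.

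The other genes of the receptor were compared on the scale of library size. Of 7 tested genes of the receptor complex (Cd3d, Cd3e, Cd3g and Cd247 of the CD3 signalling chains, Trac of the alpha chain constant region, the coreceptor Cd4 and Ptcra), 2 rose with CCl4 in liver Treg and none fell: Cd3g (log2 fold change 0.30, adjusted p = 0.0162) and Trac (0.30, adjusted p = 0.0298), where 14.8% of all genes were called in either direction. Their median log2 fold change was 0.18, against 0.00 over all genes and -0.34 over the 39 Trb members. Between the organs 5 of the 7 were lower in liver Treg and 5 in liver Tconv (medians -0.39 and -0.21), where 30.5 and 27.7% of all genes were lower, and 5 were lower in liver Treg than in liver Tconv (median -0.34), where 27.1% were. Of 3 listed recombination genes, Dntt and Rag2 could be tested. Dntt, which encodes the enzyme that adds bases at the junctions, was lower in Treg than in Tconv (log2 fold change -4.58 in liver and -2.61 in spleen) and fell with CCl4 in liver Treg by 3.61 on the log2 scale. Rag2, which encodes a subunit of the recombinase, had more RNA in Treg than in Tconv of liver (1.09, adjusted p = 0.0254) and was not called in spleen (0.10) or with CCl4 in liver Treg (0.09).

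Of the 51 members, 12 were too low to test, all annotated as Trbv pseudogenes (Trbv6, Trbv7, Trbv8, Trbv9, Trbv10, Trbv11, Trbv12-3, Trbv18, Trbv22, Trbv25, Trbv27 and Trbv28). None of them had more than 40 counts in any library, and Trbv11 and Trbv27 were at 0 throughout. The 39 tested members comprise all 22 functional Trbv segments, the pseudogene Trbv24 with 34 to 211 counts per library, all 14 Trbj including the pseudogene Trbj2-6 with 85 to 434 counts, and both Trbc genes.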

How the data were processed

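RNA of FACS-sorted cells was extracted with Trizol and a Qiagen kit, copied with the Clontech Ultra Low v4 kit and made into libraries with NexteraXT, per the labels' protocols. Per the submitters' processing notes the tools were bcl2fastq 2.19, kallisto 0.44.0 and DESeq2, with the build GRCm38.p6. Each deposited table gives kallisto's estimated counts and TPM for 118489 transcripts, and the authors' TPM values are scaled to transcript length and library. Estimated counts were summed to genes by the transcript names of GENCODE M21, which matched 98.5% of the transcripts. The 1761 unmatched transcripts, with 0.684 to 0.823% of the counts, were not used. Reads over a V(D)J junction match only their germline part, and pseudoalignment to short segments limits Trbj counts.

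Gene sums were rounded to whole numbers. A quasi-likelihood fit in edgeR 4.0.16 (R 4.3.3) over all 32 libraries and 8 groups held 17159 genes after filterByExpr, with 24 residual degrees of freedom, TMM factors of 0.923 to 1.065 and a common biological coefficient of variation of 0.285. The offset was the TMM library size for other genes and the Trbv, Trbj or Trbc total for members, so that fold changes of members are of usage. Contrasts between organs or cell types averaged both treatments with equal weight. P-values were adjusted by Benjamini-Hochberg over the 17159 genes and called under 0.05; SE is approximate, taken from log2 fold change and F. CPM are TMM-normalized. No p is given for evenness, distances or class totals. Intervals cover counting error only.

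The members and lists were chosen with earlier results of these data known. Named are the 5 Trbv of largest mean share, the 5 segments of invariant natural killer T cells, both Trbc and up to 8 called members per comparison by smallest adjusted p. Trbj2-1 across the CCl4 comparisons, Trbv14 and the members that other tools called were named after their values were seen. Alternatives were library-size scaling, DESeq2 size factors, no filter, a mean of at least 5 CPM, DESeq2 1.42.0, limma-voom (limma 3.58.1), the compared libraries alone, a block by sample number, functional Trbv only, TPM shares, leaving out each library, and leaving out spleen controls 2 and 3 (chosen after seeing the data for library-size scaling). The steps were tested on simulated data. Python 3.11.15 and matplotlib 3.10.9 were used for shares and figures.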

Additional observations from a re-analysis of the deposited data

Results flagged for a closer look

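In groups of 5 CCl4 libraries, 12 of 164 segment shares had 1 library whose gap to its nearest neighbour was large for the group's range; chance alone gives this in about 1 group of 20. In liver Tconv, library 5 had 6.11% Trbv4 (the others 3.30 to 3.61%), and library 2 had 5.74% Trbv14 (the others 0.885 to 1.51%) and 2.31% Trbj2-2 (3.19 to 3.52%). In liver Treg, library 5 had 4.32% Trbv31 (4.55 to 4.61%). In spleen Treg, library 2 had 3.82% Trbv15 (2.56 to 2.85%) and 3.09% Trbv20 (3.73 to 3.93%), and library 5 had 10.1% Trbj2-1 (7.56 to 7.85%) and 6.90% Trbj2-3 (4.31 to 4.92%). In spleen Tconv, library 5 had 7.35% Trbv19 (7.88 to 8.04%) and 0.956% Trbv29 (1.17 to 1.23%), library 3 had 0.615% Trbv30 (0.313 to 0.350%) and library 1 had 7.90% Trbj1-6 (6.72 to 7.03%). The 3 segments whose liver-spleen difference was called as unlike in Treg and Tconv, by the contrast itself, were Trbv19 (-0.29), Trbv29 (-0.62) and Trbv12-1 (-0.80).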

How the results depend on the processing

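Replacing the class total by library size moved the count of called members to 11 (CCl4, liver Treg), 5 (CCl4, spleen Treg), 5 (CCl4, spleen Tconv), 31 (liver against spleen, Treg), 26 (Treg against Tconv, liver), 2 (difference of CCl4 effects, liver Treg minus Tconv) and 18 (difference of liver-spleen). It turned the sign of Trbv24 (-0.39), Trbc1 (-0.85) and Trbv12-2 (-0.74) for liver against spleen Treg, of Trbv13-2 (-0.063) and Trbv19 (-0.060) for Tconv, of Trbv3 (-0.31) for Treg against Tconv in liver, and of Trbv1 (0.18), Trbv13-2 (0.14) and Trbv29 (0.037) for CCl4 in liver Tconv, since the class totals differ between the groups. With CCl4, liver Tconv and spleen Tconv had 1 call each at a mean of at least 5 CPM, 2 each by DESeq2 and 1 each by limma-voom, and DESeq2 gave 1 call for each difference of CCl4 effects. On the library-size scale, leaving out spleen controls 2 and 3 changed the count from 5 to 0 with CCl4 in spleen Treg and in spleen Tconv, and from 9 to 4 for Treg against Tconv in spleen. Liver Treg libraries fitted alone gave 1 call with CCl4. Without spleen controls 2 and 3 the counts were 5 for liver against spleen Treg and 0 for the difference of liver-spleen. The cause of these changes by tool, filter and library was not tested.

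Leaving out each library gave 1 to 5 calls for CCl4 in liver Treg, 0 to 1 for liver Tconv, 0 to 0 for spleen Treg, 0 to 1 for spleen Tconv, 10 to 15 and 8 to 11 for liver against spleen (Treg, Tconv), 9 to 14 and 9 to 10 for Treg against Tconv (liver, spleen), and 0 to 1, 0 to 2 and 3 to 4 for the 3 differences. Calls gained in the differences of CCl4 effects were Trbv30 without liver Treg CCl4 1, Trbv31 without liver Tconv CCl4 1, Trbv12-2 without liver Treg control 3, and Trbv12-2 and Trbv13-3 without liver Treg CCl4 2. Over the named segments and all settings, 1059 values kept their direction and side of the threshold, 45 lost their call and 9 changed sign.

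The effective number with functional Trbv only was 16.83, 16.59, 16.48, 17.23, 17.01, 16.19 and 16.10 (liver Treg control and CCl4, liver Tconv control, spleen Treg control and CCl4, spleen Tconv control and CCl4), and with TPM shares 17.81, 17.43, 18.25, 17.86, 16.94 and 16.80 (both liver Treg, spleen Treg and spleen Tconv groups). It was 17.79 for the spleen Treg control left without libraries 2 and 3. Leaving out each library gave 17.15 to 17.47, 16.90 to 17.08, 16.73 to 17.06, 16.30 to 16.60, 17.57 to 17.70, 17.24 to 17.37, 16.43 to 16.55 and 16.39 to 16.52 in group order.

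The labels do not say that a sample number marks 1 mouse, and the correlations were mixed: 18 of 48 pairs with the same number in different populations had deviations correlated above 0.1 over all genes (median 0.0737), against 6 of 156 pairs with different numbers. Between Treg and Tconv of the same organ it was 7 of 8 in spleen (all 3 of the control pairs) and 4 of 8 in liver. All same-number pairs of Treg and Tconv of the same organ were positive, from 0.0603 in liver and 0.0728 in spleen. For Trbv shares 29 of the 48 pairs were above 0.1, against 49 of the 156. Over both treatments, all 8 pairs passed in no comparison, so the numbers were not taken as pairs. Whether libraries with the same number share a mouse is not known, and the Treg-Tconv tests treat them as independent. For CCl4 the replicate block was the sample number across treatments, which joins control and CCl4 libraries that nothing ties to each other. With it the counts were 3, 0, 0 and 0 for CCl4 and 0 and 0 for the differences of CCl4 effects. Of the named segments, Trbv13-1 with CCl4 in liver Treg lost its call (0.53, adjusted p = 0.0595). For the other contrasts the block was the sample number within each treatment. With it the counts were 14 and 8 for liver against spleen, 11 and 10 for Treg against Tconv, and 3 for the difference of liver-spleen. Depth limits the rare segments: the 95% interval of a share in 1 library was up to 0.752 points for Trbv and 1.56 points for Trbj to either side.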
